A study of Equus caballus with 32 samples.

Results

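The genes described here encode the glucose transporter SLC2A1 and 9 enzymes of glycolysis, HK2, ALDOA, ALDOC, TPI1, GAPDH, PGK1, ENO1, PKM and LDHA, in tracheal wash (TW) derived cells of racehorses. They were taken by gene symbol, and the list was drawn up with earlier results of these data known. All 10 were found once among the 21357 genes listed, and all 10 passed the minimum mean log2 value of 3 that a gene needed to be tested. RNA was sequenced from the cells of 16 male Thoroughbreds kept at one yard, once at T1 (in training for about 2.5 months) and once at T0 (at rest for about 2 months), which gave 32 libraries. The High N horses, 2, 3 and 10, had TW neutrophil percentages above the cytology limit of the study at T1, and the other 13 did not. Haemosiderophages, macrophages loaded with iron from red cells, marked the 11 horses affected by exercise-induced pulmonary haemorrhage (EIPH) at T1, while horses 4, 9, 10, 11 and 16 were unaffected. Horse 10 is therefore both High N and unaffected. The same groupings of horses were also compared at T0, which the paper places in a rest between racing seasons. T0 thus came before the training period sampled at T1, but not before all training or racing. T0 came before T1 in every horse and no untrained horses were followed. The paper also states that the horses were stabled while in training and mostly at pasture at T0. Training, housing and the time between samplings therefore cannot be told apart. Values are on the log2 scale deposited by the authors, and a difference of 1 is a doubling on that scale. Read depth per library is not known from these values.

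Glycolysis splits glucose into pyruvate in the cytosol and yields ATP without oxygen. Glucose enters through facilitative transporters, is trapped by phosphorylation, is cleaved into triose phosphates, and is then oxidised and rearranged to pyruvate, which lactate dehydrogenase can reduce to lactate. Neutrophils and inflammatory macrophages draw much of their ATP from this pathway, whereas ciliated epithelium is rich in mitochondria, and a TW holds all of these cells in varying proportions. In such bulk samples, fewer cells of a type and less RNA per cell cannot be told apart.

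The label of TW derived cells was checked against marker lists. The mean of 14 macrophage marker entries lay between 13.08 and 14.33 at T1 and between 12.69 and 14.39 at T0. The ciliated epithelium mean (16 entries) ran from 7.84 to 11.92 at T1 and from 7.98 to 12.05 at T0, and the neutrophil mean (10 entries) from 8.61 to 11.19 at T1 and from 8.28 to 9.52 at T0. None of these markers was at 0 in every library. The washes thus differed widely in epithelial content at both time points, and the neutrophil markers had a median T1 minus T0 difference of 0.66, against -0.12 for the ciliated and 0.10 for the macrophage markers. The part of cell composition in the differences described next was tested only as far as the covariate fits given beside them.

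The first question was whether glycolysis genes changed with training. GAPDH and ENO1, enzymes of the part of the pathway that runs from triose phosphate to pyruvate, rose at T1 by 0.49 and 0.44 log2 units, that is 1.41-fold and 1.36-fold. No member was called lower. With the horse as replicate block, limma with Benjamini-Hochberg adjustment over 14643 genes called 2 of the 10 members, both higher, against a background of 3.89% of all genes called higher and 6.35% called in either direction. At an unadjusted p under 0.05, 7 of the 10 passed and all were higher, where 28.5% of all genes passed and 13.1% were higher. The median log2 fold change of the members was 0.33, beside -0.02 over all genes tested, and 9 of the 10 had a value above 0, as 46.4% of all genes did (8 of the 10 after quantile normalization, where LDHA turned to -0.09).

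**Figure D1:**
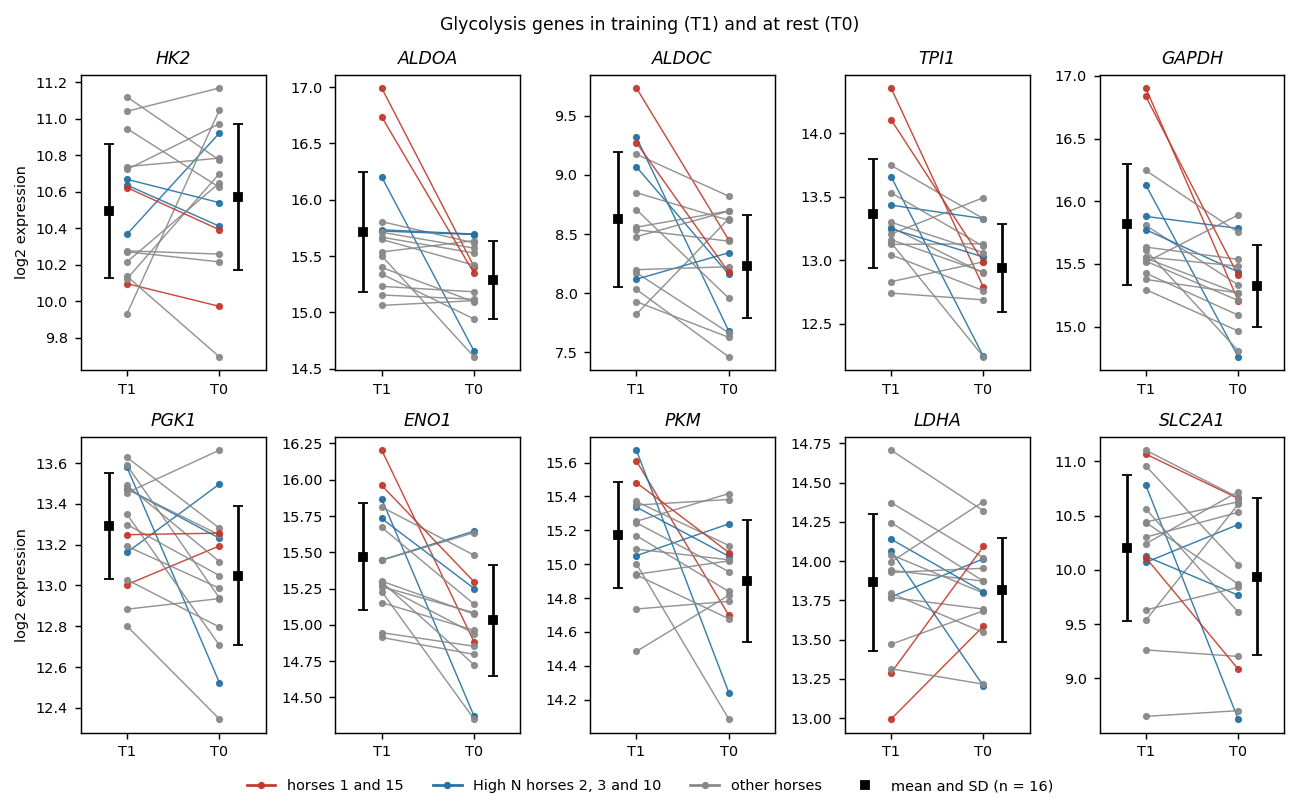
Log2 expression (y axis) of each glycolysis gene at T1 and T0, with a line for each of the 16 horses and squares with bars for the mean and SD (n = 16). The red lines of horses 1 and 15 climb steeply toward T1 in ALDOA, TPI1 and GAPDH, with T1 values of up to 16.99, 14.36 and 16.90, and drop in LDHA.

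SLC2A1 (GLUT1), the facilitative carrier that brings glucose across the plasma membrane, had values at T1 of 8.65 (lowest), 10.27 (median) and 11.10 (highest), against 8.62, 9.96 and 10.72 at T0. The ranges overlapped, with 4 T1 values above every T0 value, and 9 of 16 horses were higher at T1. Its log2 fold change was 0.27 (SE 0.18, limma adjusted p = 0.334), with a 95% interval from -0.10 to 0.64. Single horses moved far in both directions, with a difference of 2.16 in horse 2 and -1.07 in horse 5, and without horse 2 the log2 fold change was 0.14.

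HK2, the inducible hexokinase that phosphorylates glucose on entry, was the only member with a mean below its T0 level. Values at T1 were 9.93, 10.50 and 11.12 (lowest, median, highest), against 9.69, 10.64 and 11.17 at T0. The fitted difference was -0.08 (SE 0.10, limma adjusted p = 0.675), with an interval from -0.29 to 0.14. Horses were divided, 9 higher and 7 lower, and horse 14 had the lowest difference, -1.12.

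The aldolases cleave fructose 1,6-bisphosphate into triose phosphates, and ALDOA is the widely expressed form while ALDOC is best known from brain. ALDOA measured 15.06, 15.66 and 16.99 at T1 (lowest, median, highest), against 14.61, 15.38 and 15.70 at T0. In 7 horses the T1 value was above every T0 value, and 14 of 16 horses were higher at T1. The difference of 0.43 (SE 0.14) missed the threshold, with a limma adjusted p of 0.0694. ALDOC measured 7.82, 8.55 and 9.73 at T1, against 7.46, 8.28 and 8.82 at T0, with 11 of 16 horses higher. Its difference was 0.40 (SE 0.15, limma adjusted p = 0.103).

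TPI1 interconverts the triose phosphates, so that both products of aldolase pass down the pathway. Its values were 12.74, 13.26 and 14.36 at T1 (lowest, median, highest), against 12.24, 12.99 and 13.49 at T0. The gene lay just outside the threshold, at 0.43 (SE 0.13, limma adjusted p = 0.0511), with 13 of 16 horses higher. GAPDH, the dehydrogenase that oxidises glyceraldehyde 3-phosphate and makes NADH, measured 15.30, 15.62 and 16.90 at T1, against 14.76, 15.30 and 15.89 at T0. It was higher at T1 in 15 of 16 horses, horse 13 being the exception at -0.38, and 8 horses had a T0 value below every T1 value. Its rise of 0.49 (SE 0.14, interval 0.20 to 0.78) had a limma adjusted p of 0.0460.

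PGK1, which makes the first ATP of the pathway, had values of 12.80, 13.32 and 13.63 at T1 (lowest, median, highest), against 12.34, 13.08 and 13.66 at T0. No T1 value was above every T0 value, and the difference of 0.24 (SE 0.09) had a limma adjusted p of 0.0977, with 11 of 16 horses higher. ENO1, the enolase that forms phosphoenolpyruvate, measured 14.91, 15.37 and 16.20 at T1, against 14.35, 15.02 and 15.65 at T0. ENO1 was higher at T1 in 14 of 16 horses, all but horses 2 (-0.20) and 13 (-0.19). The limma adjusted p of its rise, 0.0429, was the lowest among the members (SE 0.12).

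PKM, pyruvate kinase, makes pyruvate and the last ATP of the pathway. It measured 14.48, 15.21 and 15.67 at T1 (lowest, median, highest), against 14.09, 14.99 and 15.42 at T0, a difference of 0.27 (SE 0.12, limma adjusted p = 0.145) with 10 of 16 horses higher. LDHA, the lactate dehydrogenase subunit best known for turning pyruvate into lactate, measured 12.99, 13.93 and 14.71 at T1, against 13.20, 13.84 and 14.38 at T0. The LDHA difference was 0.05 (SE 0.11, limma adjusted p = 0.806), with a 95% interval from -0.17 to 0.27 and 10 of 16 horses higher.

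**Figure D2:**
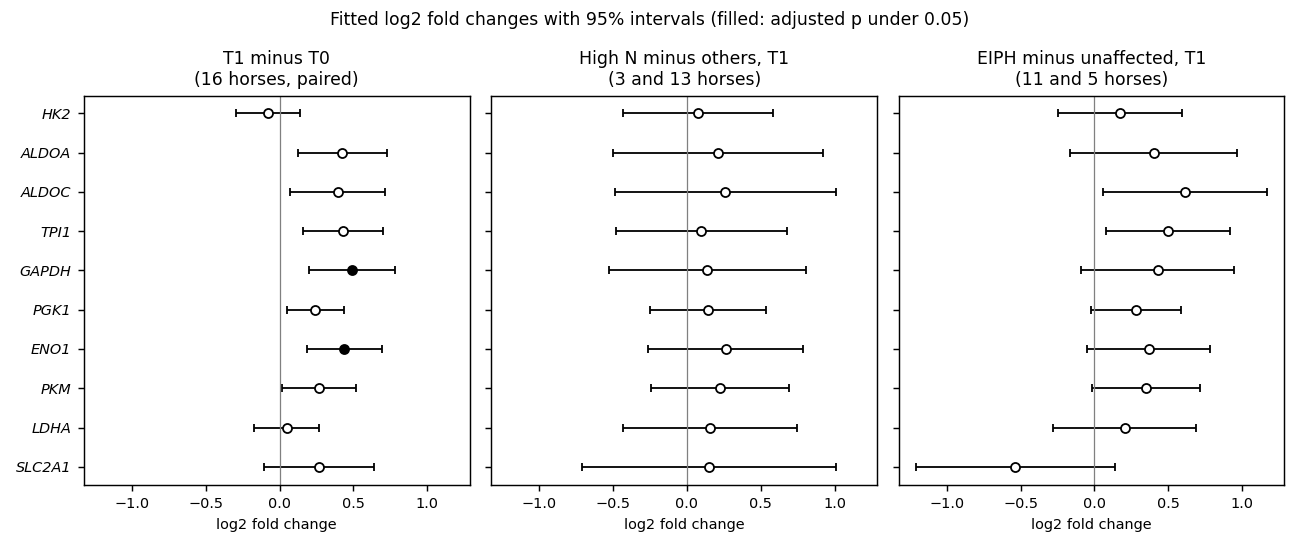
Fitted log2 fold changes (x axis) of the 10 genes with 95% intervals from limma, for T1 minus T0, High N minus others at T1 and EIPH-affected minus unaffected at T1; filled points have an adjusted p under 0.05. GAPDH (0.49) and ENO1 (0.44) are the filled points, and SLC2A1 (-0.54) is the one member to the left of 0 in the EIPH panel.

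The calls depended on single horses. In fits with one horse left out at a time, the number of members called ran from 0 to 3: it was 0 without any one of horses 1, 3, 4, 6, 7, 8, 10, 11, 14, 15 or 16, 2 without horse 2 or 5, and 3 without horse 9, 12 or 13, when TPI1 passed as well. Over the same fits the whole-table count ran from 77 to 1847 genes, against 930 with every horse. The sizes moved less than the calls: the GAPDH, ENO1, TPI1 and ALDOA differences stayed above 0 in each of the 16 fits, and the members' median ran from 0.30 to 0.38. Exact two-sided sign-flip permutations of the 16 within-horse differences were run for the members only, with no adjustment over genes. They gave p = 0.000702 for GAPDH, 0.000793 for ENO1, 0.00101 for ALDOA, 0.00229 for TPI1, 0.496 for HK2 and 0.650 for LDHA. With neutrophil, T cell and ciliated marker means as covariates, no member had an unadjusted p under 0.05, no gene of the table was called (1089 had an unadjusted p under 0.05), and the members' median was 0.08. With macrophage and ciliated means in their place, a choice made after seeing the data, 5 members were called, ALDOA, TPI1, GAPDH, ENO1 and SLC2A1, along with 3001 genes in the table.

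**Figure D3:**
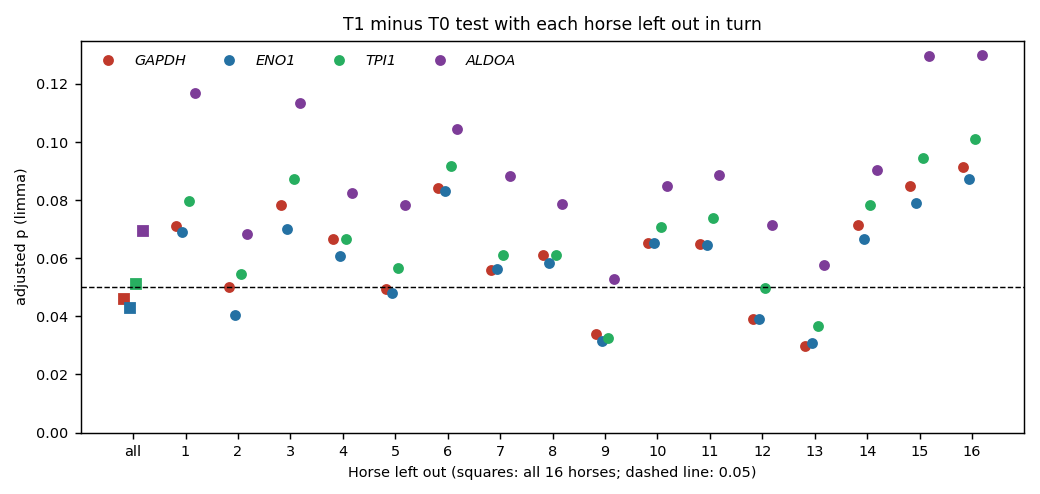
Limma adjusted p (y axis) of GAPDH, ENO1, TPI1 and ALDOA for T1 minus T0 with all 16 horses (squares) and with each horse left out in turn (circles, x axis); the dashed line is the 0.05 threshold. GAPDH and ENO1 lie at 0.0460 and 0.0429 with all horses and cross above the line in 11 of the 16 fits, and ALDOA is above it in each fit shown.

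Horses differed in how many of the genes moved. All 10 members were higher at T1 in horses 6 and 16, and none was in horse 13, where differences ran from -0.38 to -0.02. The steepest rises of GAPDH, ALDOA and TPI1 came from horses 1, 3 and 15. The T1 libraries of these horses also had the highest totals of all libraries when the values were taken off the log2 scale and summed. Their medians over the tested genes were not raised, at 9.01, 8.79 and 8.94, where T1 libraries ran from 8.79 to 9.15. The part of such library differences in the gains of these horses was not tested. Horse 3 gained 1.37 in GAPDH, 1.50 in ENO1, 1.43 in PKM and 1.06 in PGK1, while its ciliated marker mean was 8.51 at T1 against 11.72 at T0 and its macrophage mean 14.21 against 12.69. Horse 1 gained 1.70 in GAPDH, 1.59 in ALDOA and 1.57 in TPI1, and horse 15 gained 1.43, 1.39 and 1.12 in the same genes. These gains did not extend to LDHA, which differed by -0.59 in horse 1 and -0.81 in horse 15. The LDHA difference minus the GAPDH difference was -2.29 in horse 1 and -2.23 in horse 15, outside the span from -0.70 to 0.28 of the other 14 horses. Macrophage and ciliated means changed by 0.44 and -0.52 in horse 1 and by 0.05 and 1.22 in horse 15, and the neutrophil mean by 0.12 and 1.71. Without horses 1 and 15, the GAPDH and ENO1 differences were 0.34 and 0.36, no member was called (limma adjusted p of 0.110 and 0.108) and the members' median was 0.28.

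**Figure D4:**
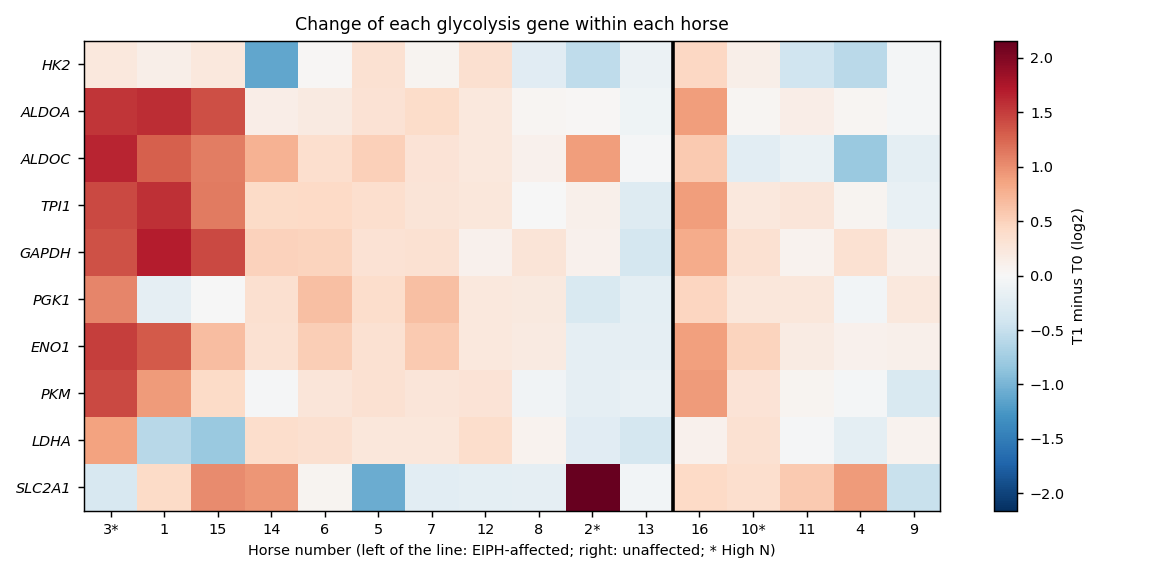
T1 minus T0 difference (log2, colour scale) of each gene (rows) in each horse (columns), EIPH-affected horses left of the line and unaffected horses right of it, with High N horses starred. Horses 3, 1 and 15 are dark red in ALDOA, TPI1 and GAPDH, while LDHA is blue in horses 1 (-0.59) and 15 (-0.81).

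Over all 16 horses the genes did not move as one block. Pearson correlations of the 16 within-horse differences were between 0.78 and 0.97 for the 10 pairs among ALDOA, TPI1, GAPDH, ENO1 and PKM. This set was not fixed in advance, so its range is a description only. ALDOC gave r from 0.67 with ENO1 to 0.80 with TPI1 among the same genes. TPI1 and GAPDH gave r = 0.96 and a Spearman rho of 0.84, with permutation p = 1e-05, the smallest that 100000 permutations can give, and p = 0.00011, or 0.000112 and 0.000619 after Benjamini-Hochberg adjustment over the 45 pairs. Without horses 1 and 3, r was 0.91. PGK1 and LDHA, which sit at distant steps, also moved together, with r = 0.83 and rho = 0.78 (permutation p = 8e-05 and 0.00063, adjusted 0.0004 and 0.00282), and r = 0.77 without horses 2 and 3. LDHA and GAPDH gave r = -0.15 and rho = 0.14 (permutation p = 0.576 and 0.593, adjusted 0.682 and 0.651). That value rested on 2 animals, since without horses 1 and 15 r was 0.76. PGK1 and GAPDH gave r = 0.20 and rho = 0.35 (permutation p = 0.446 and 0.187, adjusted 0.563 and 0.286). Without the same 2 horses their r was 0.80. The separation of PGK1 and LDHA from GAPDH thus rested on horses 1 and 15. Against the mean of the other 9 members, r was 0.95 for TPI1, 0.91 for ENO1 and 0.32 for HK2, against 0.00 for LDHA and -0.19 for SLC2A1. These differences share the libraries and scaling of their horse.

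**Figure D5:**
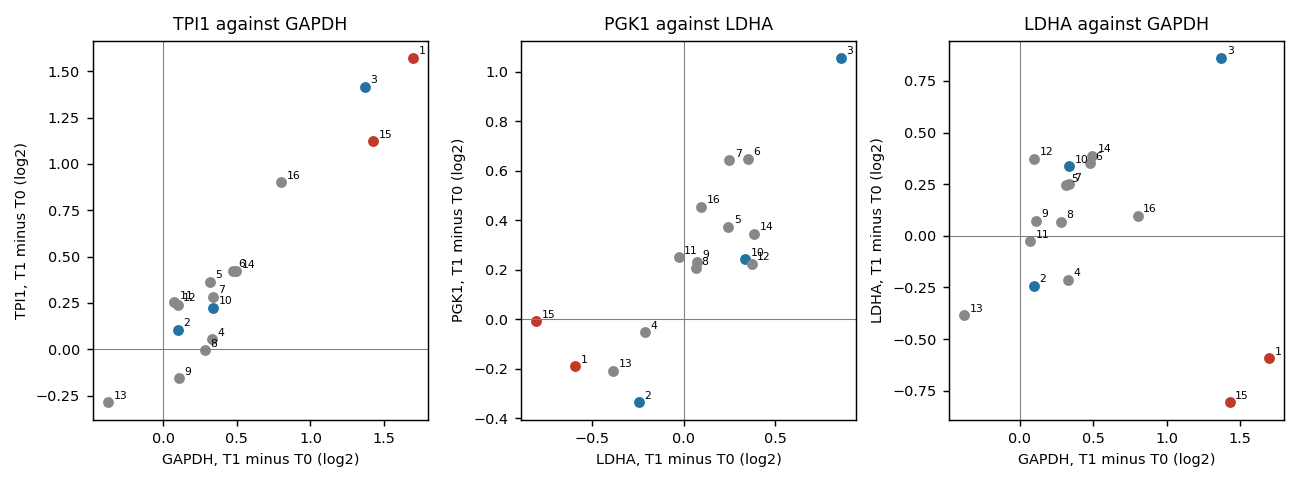
T1 minus T0 differences (log2 on both axes) of 16 horses, numbered, for TPI1 against GAPDH, PGK1 against LDHA and LDHA against GAPDH; red marks horses 1 and 15 and blue the High N horses. TPI1 follows GAPDH (r = 0.96) and PGK1 follows LDHA (r = 0.83), while horses 1 and 15 sit far below the other horses in the LDHA and GAPDH panel.

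SLC2A1 also stood apart in what it moved with. Its difference between time points correlated with that of the squamous and secretory epithelium markers (r = 0.92, rho = 0.87, permutation p = 1e-05 and 5e-05, adjusted 0.0007 and 0.0035 over 70 gene and marker list pairs, r = 0.80 without horses 2 and 5) and of the ciliated markers (r = 0.79, rho = 0.83, permutation p = 0.00026 and 0.0001, adjusted 0.0091 and 0.0035, r = 0.78 without horses 3 and 5). It also followed the erythroid markers (r = 0.72, rho = 0.71, permutation p = 0.00135 and 0.00275, adjusted 0.0189 and 0.0321, r = 0.67 without horses 14 and 15). With the neutrophil markers SLC2A1 gave r = 0.75 and rho = 0.61 (permutation p = 0.00065 and 0.0131, adjusted 0.0115 and 0.102), and r = 0.68 without horses 2 and 13. GAPDH and ENO1, the members called for training, gave r of 0.34 and 0.17 with the neutrophil markers (permutation p = 0.193 and 0.531, adjusted 0.407 and 0.774).

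Several enzymes moved with the macrophage markers. ENO1 gave r = 0.73 and rho = 0.71 with them (permutation p = 0.00176 and 0.00249, adjusted 0.0205 and 0.0321, r = 0.59 without horses 3 and 7). HK2 gave r = 0.69 and rho = 0.72 (permutation p = 0.00422 and 0.00228, adjusted 0.0328 and 0.0321, r = 0.86 without the same horses), and ALDOA r = 0.65 and rho = 0.72 (permutation p = 0.00724 and 0.00251, adjusted 0.0461 and 0.0321, r = 0.57 without them). PKM gave r = 0.78 and rho = 0.65 (permutation p = 0.00066 and 0.00704, adjusted 0.0115 and 0.0704, r = 0.69 without them), so that its rank correlation missed the threshold. For GAPDH r was 0.48 (permutation p = 0.0596, adjusted 0.174). Some enzymes moved against the ciliated markers. There PGK1 gave r = -0.70 and rho = -0.59 (adjusted permutation p = 0.0241 and 0.109, r = -0.56 without horses 3 and 5). HK2 gave r = -0.65 and rho = -0.60 with them (adjusted permutation p = 0.0446 and 0.109, r = -0.66 without those horses). Both rank correlations missed the threshold. In all, 6 of the 70 pairs had an adjusted p under 0.05 on both measures. Of these, 3 were SLC2A1 with the epithelial and erythroid lists and 3 were enzymes with the macrophage list. Another 6 had one on Pearson's r only. Those were PKM and PGK1 with macrophage, HK2 and PGK1 with ciliated, HK2 with erythroid and SLC2A1 with neutrophil markers. The relations were tested for the members only. The share of all genes that follow these marker lists is therefore not known. Whether cell content produced these relations was not tested.

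The rest of the pathway was described from lists of its other genes. For comparison, 6.35% of all genes tested were called for training and 46.4% had a difference above 0. Of 15 further glycolysis enzymes and isoforms tested, among them the other hexokinases and the phosphofructokinases, none was called for training and the median was 0.14. The smallest p values belonged to PFKP, the platelet form of phosphofructokinase, at 0.25 (SE 0.11, limma adjusted p = 0.133), ENO3 at 0.26, LDHB, the other lactate dehydrogenase subunit, at 0.15, and GPI, the isomerase that follows hexokinase, at 0.16. HK1 and HK3, further hexokinases, had differences of -0.005 and 0.14. Of 10 sugar and lactate carriers none was called, with 6 higher and a median of 0.18. SLC2A8, an intracellular glucose transporter, had a difference of 0.48 (SE 0.14, limma adjusted p = 0.0517), and the lactate exporter SLC16A3 and its chaperone BSG had 0.43 and 0.48 (limma adjusted p = 0.149 and 0.144). Of 11 regulators of glycolytic flux none was called, 5 were higher and the median was -0.03. PFKFB4, which sets the level of the phosphofructokinase activator fructose 2,6-bisphosphate, had 0.32 (limma adjusted p = 0.0800), and PDK1, which holds pyruvate dehydrogenase inactive, had -0.22 (limma adjusted p = 0.158).

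Genes outside the family whose pattern was most like that of the members were ranked by the correlation with the mean log2 value of the 10 members. Over the 32 libraries they were NCF4 (r = 0.94), a subunit of the phagocyte NADPH oxidase, APRT, PRELID1, LAMTOR1, TUBA4A and ACOT7. Over the 16 within-horse differences they included TUBA4A (r = 0.97), an alpha tubulin, NAGK (r = 0.97), a kinase of N-acetylglucosamine, EIF2B5, ZPR1 and COMMD7. These values are descriptions, and the points share libraries and scaling.

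The second question was whether the 3 High N horses differed from the other 13. SLC2A1 measured 10.78, 10.07 and 10.12 in High N horses 2, 3 and 10 at T1, against 8.65, 10.30 and 11.10 in the others (lowest, median, highest). ENO1 measured 15.45, 15.87 and 15.73 in High N horses, against 14.91, 15.30 and 16.20 in the others, and GAPDH 15.88, 16.13 and 15.77, against 15.30, 15.56 and 16.90. For both enzymes the High N values lay above the median of the others and inside their range. All 10 members had a positive log2 fold change, from 0.08 for HK2 to 0.26 for ENO1 and ALDOC, with a median of 0.15 (-0.01 over all genes, of which 49% were above 0), but ALDOA, TPI1 and GAPDH turned negative after quantile normalization. Single horses also set these values: without horse 2 SLC2A1 was -0.08, without horse 3 TPI1 was -0.009 and ALDOC 0.02, and without horse 10 ALDOC was 0.62. None was called, with a limma adjusted p of 0.9997 for each, and none had an unadjusted p under 0.05. Of all 14630 genes tested, 24 were called (0.164%), all higher, and 2.78% had an unadjusted p under 0.05. The intervals were wide, from -0.27 to 0.79 for ENO1 and from -0.53 to 0.81 for GAPDH.

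The High N horses were also compared at T0, before their neutrophil counts passed the limit. Members had log2 fold changes from -0.41 for SLC2A1 to 0.07, with a median of -0.03, and none passed at an unadjusted p under 0.05 (limma adjusted p 0.9999 for each). No gene in the table was called, while 3.37% had an unadjusted p under 0.05. The SLC2A1 value came from horse 2, at 10.78 at T1 and 8.62 at T0, and without that horse it was 0.08. Horse 3 set the upper limit for the enzymes, since without it ENO1 was 0.43, ALDOA 0.42, PGK1 0.32 and GAPDH 0.29, and TPI1, PKM and LDHA turned positive at 0.23, 0.23 and 0.06. Without horse 2, in turn, ENO1, GAPDH, PGK1, ALDOA and HK2 were negative, at -0.21, -0.23, -0.16, -0.10 and -0.08. Training differences in High N horses did not differ detectably from those in the others for any member, the largest interaction being 0.56 for SLC2A1 (SE 0.45, limma adjusted p = 0.9999). Without horse 2 it was -0.16, and without horse 3 the interaction turned negative for 7 members, ALDOA at -0.37 and ENO1 at -0.26 among them. No gene of the table was called for this interaction (1.17% at an unadjusted p under 0.05).

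The third question concerned EIPH. At T1, 9 of the 10 members were higher in the 11 affected horses, with a median log2 fold change of 0.36 against 0.02 over all genes, of which 51.7% were higher, and SLC2A1 was lower. TPI1 had values of 13.04, 13.44 and 14.36 in affected horses (lowest, median, highest), against 12.74, 12.83, 13.25, 13.16 and 13.14 in unaffected horses 4, 9, 10, 11 and 16, and 8 of the affected horses lay above every unaffected one. The TPI1 difference was 0.50 (SE 0.20, unadjusted p = 0.0223, limma adjusted p = 0.202). ALDOC measured 7.93, 8.85 and 9.73 in affected horses, against 7.82, 8.48, 8.12, 8.56 and 8.03 in unaffected ones, with 7 affected horses above every unaffected one. Its difference was 0.61 (SE 0.27, unadjusted p = 0.0327, limma adjusted p = 0.236). These were the members with an unadjusted p under 0.05, 2 of 10, where 18.3% of all genes had one in either direction and 4.44% did so upward. Limma called 0 of 14630 genes after adjustment.

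For PKM and PGK1 the differences were 0.35 (SE 0.17) and 0.28 (SE 0.15). Limma gave unadjusted p = 0.0582 for PKM and 0.0691 for PGK1 (adjusted 0.292 and 0.315). Exact two-sided permutation of 11 against 5 horses gave unadjusted p = 0.0330 and 0.0410, beside 0.0238 for TPI1 and 0.0417 for ALDOC. The same permutation gave 0.0632 for ENO1, 0.0939 for GAPDH, 0.147 for SLC2A1, 0.164 for ALDOA, 0.393 for HK2 and 0.404 for LDHA. It was run for the members only, so no share over all genes is known. GAPDH measured 15.43, 15.81 and 16.90 in affected horses (lowest, median, highest), against 15.30, 15.38, 15.77, 15.56 and 15.61 in unaffected ones, a difference of 0.43 (SE 0.25, limma adjusted p = 0.373). SLC2A1 measured 8.65, 10.11 and 11.07 in affected horses, against 10.96, 10.24, 10.12, 10.44 and 11.10 in unaffected ones, and 6 affected horses lay below every unaffected one. The SLC2A1 difference was -0.54 (SE 0.32, limma adjusted p = 0.390).

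The washes of these groups also differed in epithelium. All 16 ciliated markers were lower in affected horses at T1, with a median difference of -1.51, their mean running from 7.84 to 11.39 in affected and from 9.78 to 11.92 in unaffected horses, and all 14 macrophage entries were higher, with a median of 0.47. With the ciliated mean as covariate, chosen after seeing the data, TPI1 and ALDOC kept differences of 0.51 and 0.62 but had unadjusted p of 0.0558 and 0.0716, and SLC2A1, HK2 and LDHA changed sign, to 0.16, -0.04 and -0.15. Without horses 1 and 15, both affected, TPI1 and ALDOC differed by 0.34 and 0.46. At T0 the same affected horses had 8 of 10 members higher (43.4% of all genes), with a median of 0.20, among them PGK1 at 0.26 and TPI1 at 0.24 (ALDOA turned to -0.02 after quantile normalization), and none passed at an unadjusted p under 0.05 (limma adjusted p of 0.939 to 0.951). These T0 differences leaned on horse 16, without which PGK1 was 0.13, TPI1 0.11 and PKM 0.05, and ALDOA and HK2 turned to -0.06 and -0.05. No gene was called at T0, and 1.17% had an unadjusted p under 0.05.

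Among the members, ALDOC had the largest interaction of training with EIPH. It was higher at T1 in 10 of 11 affected horses, with differences up to 1.64 in horse 3, and in 1 of 5 unaffected horses, horse 16 at 0.57, beside -0.81, -0.21, -0.22 and -0.14 in horses 4, 9, 10 and 11. The interaction was 0.81 (SE 0.28), with an unadjusted p of 0.0098, an exact permutation p of 0.0119 and a limma adjusted p of 0.982, and no gene in the table was called (1.49% at an unadjusted p under 0.05). It stayed between 0.651 and 0.996 when each horse was left out. For the other 9 members the interaction ran from -0.13 to 0.31, with HK2, PGK1, LDHA and SLC2A1 changing sign in some fits with one horse left out, each with an adjusted p of at least 0.982.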

How the data were processed

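RNA of TW derived cells was sequenced from 16 horses at both time points (32 libraries). Adaptors were removed by the authors with cutadapt, quality was checked in FastQC and MultiQC, and expression was estimated with kallisto 0.46.0.1 against EquCab3.0 transcripts. Although the deposited table carries the title of a raw count matrix, it holds log2 values, which the authors had adjusted for library size and which show little spread in weakly expressed genes. The step that made them is not given in the sources used here. It holds no counts, so depth per library is unknown, and differences of genes with low expression are understated.

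Of 21357 genes, 1899 were at 0 throughout and left out. Those reaching a mean log2 of 3 were tested with limma 3.58.1 in R 4.3.3 (mean-variance trend, empirical Bayes, FDR threshold 0.05 by Benjamini-Hochberg over all genes tested). Training was fitted with the horse as replicate block, since both time points come from the same animals, and deviations from the group means correlated within horses between -0.51 and 0.79. High N (3 against 13) and EIPH (11 against 5) were compared at T1 and at T0, and their interactions with training were tested. High N and EIPH status follow the horse numbers in the text of the study. Recovery was tested on simulated data. Exact permutation tests and correlations with the mean of the members were also run in R. Correlations with permutation p values and the figures used Python 3.11.15, scipy 1.17.1 and matplotlib 3.10.9. Members and gene lists were chosen with earlier results of these data known. All 10 members are named in each comparison, with up to 4 genes of smallest p from each other pathway list. HK1 and HK3 were named after their values were seen. Of the genes most like the members, 1 is not reported here. Alternatives covered the filter, limma settings, scaling, the replicate block, marker covariates, subsets of horses and leaving out each horse.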

Additional observations from a re-analysis of the deposited data

Results flagged for a closer look

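Horse 16 stood apart from the other EIPH-unaffected horses in 4 of 30 groups of 5 horses examined (each of the 10 genes at T1, at T0 and as the T1 minus T0 difference), where the gap to the nearest horse divided by the range was above Dixon's 95% critical value of 0.71. Chance alone marks about 1 in 20 independent groups. These groups were not independent, since they hold the same 5 horses, correlated genes and differences that contain the T0 values. The count of 4 can therefore not be set against that rate. The T0 library of horse 16 also had the lowest mean of the 10 members among all libraries, 12.35. At T0 its HK2 value was 9.69, with the others from 10.54 to 10.78, its ALDOC value was 7.46, with the others from 8.34 to 8.70, and its PKM value was 14.09, with the others from 14.78 to 15.05. Its ALDOA difference between T1 and T0 was 0.90, with the others from -0.04 to 0.14. At T0 this horse also had the highest ciliated marker mean of all libraries, 12.05, and a macrophage mean of 12.79, and the part of these in its values was not tested.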

How the results depend on the processing

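The 2 members called for training (GAPDH, ENO1) became 0 with no filter on low values (454 genes called in the table), with libraries shifted to one median (519), with no replicate block (15), with neutrophil, T cell and ciliated covariates (0), with the 3 High N horses left out (25), without horses 1, 14, 15 and 16 (0), in EIPH-affected horses only (0), in EIPH-unaffected horses only (0) and without horses 1 and 15 (38). They became 1 with quantile normalization (TPI1) and without the mean-variance trend (ENO1), 4 with the replicate block as a random effect (1673) and 5 with macrophage and ciliated covariates (3001). With a mean log2 of at least 6, 3 were called (1271 genes). Leaving out each horse gave 0 to 3. The subsets held fewer horses, and the fit without a filter adjusted over more genes. What caused these changes in the calls was not tested. Member differences for training kept their sign in 315 of 320 alternative values. The exceptions were LDHA, at -0.09 with quantile normalization, -0.05 with neutrophil, T cell and ciliated covariates, -0.01 without the High N horses and -0.01 without horse 3, and ALDOC at -0.16 in unaffected horses. For High N and EIPH no member passed the adjusted threshold under any alternative, and signs were kept in 235 of 240 and 257 of 260 values at T1 and in 197 of 220 and 217 of 220 at T0. The interactions kept them in 157 of 170 values with High N and 154 of 170 with EIPH. No read depth is known, so no counting error is given.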

Other observations

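Pathways that share intermediates with glycolysis were described from lists for T1 minus T0, each gene tested with limma and Benjamini-Hochberg adjustment over 14643 genes. Of all these genes 6.35% were called, 3.89% higher and 2.47% lower. In the pentose phosphate pathway, 1 of 7 genes was called, TALDO1, the transaldolase that returns sugars to glycolysis, which rose by 0.34 (SE 0.09, adjusted p = 0.0433). PGLS, PGD and TKT had 0.33, 0.22 and 0.20 with adjusted p of 0.107, 0.168 and 0.250, and the list had a median of 0.20. In pyruvate entry and the citric acid cycle, 2 of 21 genes were called, both higher: IDH3B, a subunit of isocitrate dehydrogenase, at 0.36 (adjusted p = 0.0369), and MDH2, mitochondrial malate dehydrogenase, at 0.33 (adjusted p = 0.0433). IDH3G had 0.43 (adjusted p = 0.0502), and the median of the list was 0.06. Of the 4 gluconeogenesis genes tested none was called, with G6PC3 at 0.36 (adjusted p = 0.0762) and FBP1 at 0.29 (adjusted p = 0.0928).

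Targets of hypoxia-inducible factors outside glycolysis did not share a direction: 10 of 20 were higher and 10 lower, with a median of -0.01. Over all genes tested, 46.4% were higher and 6.35% were called. ADM, which encodes the vasodilator peptide adrenomedullin, rose by 1.004 (SE 0.13, adjusted p = 0.00344), P4HA2, a collagen prolyl hydroxylase, rose by 0.38 (adjusted p = 0.0295), and KDM3A, a histone demethylase, fell by 0.24 (adjusted p = 0.0460). With each horse left out in turn, ADM passed in 16 of 16 fits, P4HA2 in 10, IDH3B in 7, MDH2 in 5, and KDM3A and TALDO1 in 4 each.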
